A study of Mus musculus with 28 samples.

Results

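Genes of fat cells were examined one by one in mouse skeletal muscle after the inflammatory cytokine interleukin 1b (IL-1b) had been injected into the cerebral ventricles. The set holds 10 genes: Plin1, Adipoq, Cfd, Lep, Retn and Cidec, which are largely restricted to adipocytes, and Plin4, Aqp7, Fabp4 and Pparg, which other cells of muscle can also express. A gene was measured by the probe set to which the platform annotation gives that single symbol, and 9 of the 10 were found in this way among 15224 genes so named. Cfd was not analysed here.

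Mice received IL-1b or vehicle by intracerebroventricular injection, and muscle was collected at 2, 4 or 8 h. IL-1b muscle was measured on 5 arrays at each of 2 h and 4 h and on 3 arrays at 8 h, and vehicle muscle on 5 arrays at each time. Mice of all 6 groups had the same kind of injection and differed in what was injected. The sources used here do not give strain, sex, age, the muscle sampled or whether each array is a separate mouse. The p-values therefore cover the spread from array to array, which may be technical. Values are log2 and centred on each probe set's median over the 28 arrays: 0 is that median, a value of 1 is 2-fold above it, and no value says how abundant a transcript was. For that reason the labelled tissue could not be checked by the level of its markers. Of 9 myofibre marker genes measured, 0 passed the test between IL-1b and vehicle muscle at any of the 3 times, and their median difference lay between -0.0053 and 0.016. The number of arrays limits the precision.

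Adipocytes store triglyceride in 1 large lipid droplet and secrete adipokines such as adiponectin, leptin and resistin. Perilipins coat the droplet and control access of lipases to it, and the transcription factor PPAR gamma switches on much of this programme. Dissected skeletal muscle can carry adipocytes between its fibres or on its surface, while the fibres themselves hold small lipid droplets. In bulk tissue, fewer adipocytes and less RNA per adipocyte cannot be told apart.

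The promoters of 3 members are shown because they stand for 3 patterns in the data: Plin1 followed the other adipocyte genes from array to array, Plin4 was higher after IL-1b and Aqp7 was lower. Each run is the gene's own strand, 5′ to 3′, from 250 bases before to 50 bases after the gene start in RefSeq's annotation of build GRCm38.p6, a later build than the mm9 named in the submitters' processing notes, and no position was carried from one to the other. All 3 genes lie on the minus strand, at chr7:79732727-79733026 for Plin1, chr17:56109733-56110032 for Plin4 and chr4:41048087-41048386 for Aqp7 (the first of its listed starts). Capitals mark matches to the motifs searched.
Plin1: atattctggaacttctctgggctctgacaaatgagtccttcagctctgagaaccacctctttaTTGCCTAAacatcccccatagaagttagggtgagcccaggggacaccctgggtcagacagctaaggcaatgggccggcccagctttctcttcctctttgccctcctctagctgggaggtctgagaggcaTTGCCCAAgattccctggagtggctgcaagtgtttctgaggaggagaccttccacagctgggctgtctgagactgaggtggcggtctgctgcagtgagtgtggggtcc
Plin4: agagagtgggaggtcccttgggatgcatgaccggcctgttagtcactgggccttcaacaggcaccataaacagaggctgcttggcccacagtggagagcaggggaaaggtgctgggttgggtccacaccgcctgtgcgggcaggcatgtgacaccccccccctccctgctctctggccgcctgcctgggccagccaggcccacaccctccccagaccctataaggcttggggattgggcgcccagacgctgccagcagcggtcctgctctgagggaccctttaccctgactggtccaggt
Aqp7: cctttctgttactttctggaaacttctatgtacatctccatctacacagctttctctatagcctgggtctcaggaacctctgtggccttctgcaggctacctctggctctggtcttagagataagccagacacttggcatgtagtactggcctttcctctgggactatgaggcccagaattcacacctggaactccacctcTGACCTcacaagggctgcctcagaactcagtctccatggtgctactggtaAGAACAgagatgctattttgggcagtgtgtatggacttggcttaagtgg

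The motifs were searched on both strands. They were TTGCNNAA for C/EBP factors, AGGTCA for a nuclear receptor half-site, the direct repeat of that half-site with 1 base between the copies, which PPAR gamma and its partner bind, TGTTTAC for forkhead factors and AGAACA for a glucocorticoid receptor half-site. Plin1 held TTGCNNAA at -187 and at -58 from the gene start, and 10.8% of 32851 mouse promoters of this length hold that motif at least once. Aqp7 held AGGTCA, read on the opposite strand as TGACCT, at -49 and AGAACA at 1. Those motifs occur in 16.3% and 19% of promoters. In the Plin4 window none of the 5 motifs matched, and the full direct repeat, present in 0.0396% of promoters, matched in none of the 3. RefSeq's table listed promoters for 9 of the 10 members, all but Fabp4. A match describes the letters in the window and is not a bound site.

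Plin4 transcripts were higher in IL-1b muscle at 4 h and 8 h, by 1.53-fold and 1.80-fold. Plin4 is a perilipin of small and nascent droplets that is found in adipocytes and also in skeletal muscle. At 2 h Plin4 was at -0.22, -0.20, -0.014, -0.23 and -0.19 in IL-1b muscle, against -0.32, -0.57, 0.36, -0.29 and -0.29 in vehicle muscle. The groups overlapped, with 1 vehicle array, replicate 7, far above the others. At 4 h the IL-1b arrays stood at 0.42, 0.36, 0.63, 0.54 and 0.54, and the vehicle arrays at -0.26, -0.012, 0.012, -0.071 and -0.23. Every IL-1b array was above every vehicle array. At 8 h Plin4 was at 0.75, 1.24 and 0.86 in IL-1b muscle and at 0.073, -0.18, 0.25, 0.29 and 0.10 in vehicle muscle, again without overlap.

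The Plin4 difference, IL-1b minus vehicle, was 0.05 ± 0.12 at 2 h (SE, limma adjusted p = 0.881), 0.61 ± 0.12 at 4 h (limma adjusted p = 0.00462) and 0.85 ± 0.14 at 8 h (limma adjusted p = 0.000315). Here an adjusted p comes from limma's moderated test and the Benjamini-Hochberg method across the 17831 probe sets of the table. A gene is said to pass, and to have risen or fallen, where it is under 0.01. Exact two-sided permutation tests of Plin4 alone gave p = 0.00794 at 4 h and p = 0.0179 at 8 h, each the smallest that these group sizes allow. Adjusted over the 27 such tests of 9 members at 3 times, they were 0.0714 and 0.121. The 4 h call was close to its limit. It was lost without any of IL-1b replicates 15, 18 or 22 or vehicle replicates 1, 7 or 17 (limma adjusted p = 0.0108 to 0.0213), while the difference stayed between 0.57 and 0.64. At 8 h the call held without each array in turn, with differences of 0.70 to 0.95. It was lost after quantile normalization (0.56 ± 0.14, SE, limma adjusted p = 0.0422) and in a fit of only the 2 groups compared (limma adjusted p = 0.0289). The arrays of widest spread over all probe sets were IL-1b 8 h replicate 22, vehicle 8 h replicate 1 and vehicle 2 h replicate 7. Without these 3 the Plin4 difference was 0.20 at 2 h and 0.69 at 8 h (limma adjusted p = 0.507 and 0.000594).

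**Figure D1:**
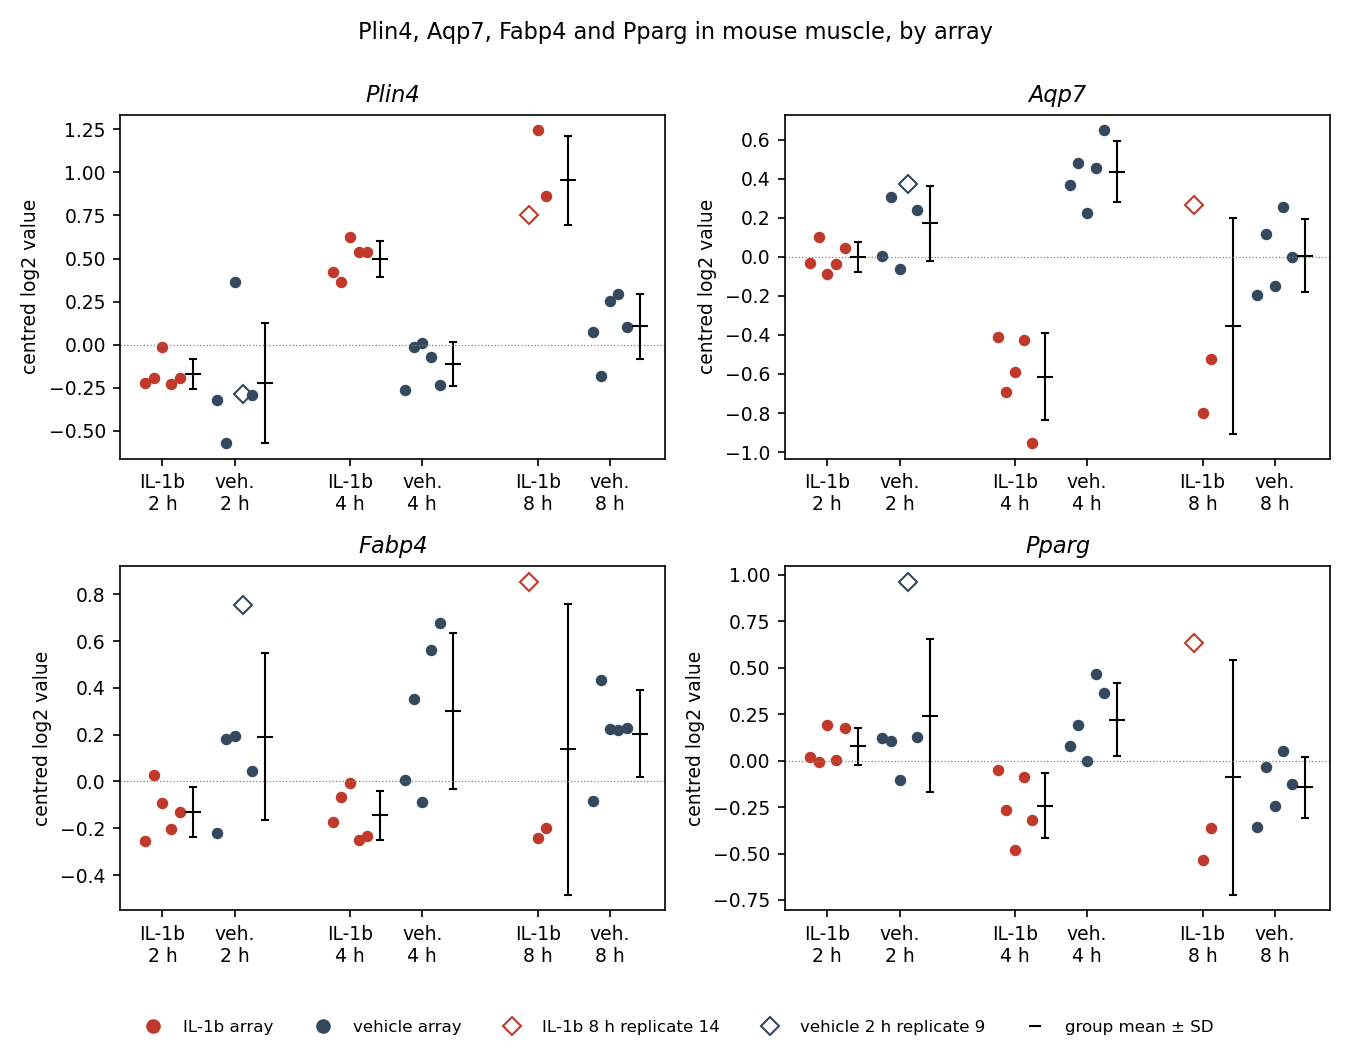
Plin4, Aqp7, Fabp4 and Pparg by array. The vertical axis is the log2 value centred per probe set, each point is 1 array, bars are the mean ± SD of the group, IL-1b stands left of vehicle at 2, 4 and 8 h, and open diamonds are IL-1b 8 h replicate 14 and vehicle 2 h replicate 9. Plin4 of every IL-1b array at 4 h and 8 h lies above the vehicle arrays of that time, and Aqp7 of every IL-1b array at 4 h lies below them.

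Aqp7 fell 2.07-fold in IL-1b muscle at 4 h, the largest difference of any member at any time. Aqp7 is an aquaglyceroporin, the channel through which adipocytes release glycerol, and capillary endothelium also expresses it. At 2 h Aqp7 was at -0.031, 0.10, -0.088, -0.035 and 0.047 in IL-1b muscle, against 0.0015, 0.31, -0.065, 0.37 and 0.24 in vehicle muscle. These groups overlapped and differed by -0.17 ± 0.14 (SE, limma adjusted p = 0.641). At 4 h it was at -0.41, -0.69, -0.59, -0.43 and -0.95 in IL-1b muscle and at 0.37, 0.48, 0.22, 0.46 and 0.65 in vehicle muscle. All IL-1b arrays were below all vehicle arrays, and the Aqp7 difference was -1.05 ± 0.14 (SE, limma adjusted p = 4.03e-05, exact permutation p = 0.00794, and 0.0714 adjusted over the 27 tests). It stayed between -1.10 and -0.96 when each array was left out in turn.

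At 8 h Aqp7 split the IL-1b group. IL-1b replicate 14 was at 0.26, while replicates 22 and 26 were at -0.80 and -0.53. Vehicle muscle was at -0.20, 0.12, -0.15, 0.26 and -0.0015. With all arrays the difference was -0.36 ± 0.16 (SE, limma adjusted p = 0.32), so Aqp7 did not pass at 8 h. Without IL-1b replicate 14 it was -0.67 ± 0.14 (SE, limma adjusted p = 0.00547), with 2 IL-1b arrays left. Leaving out each array in turn gave -0.67 to -0.14 (limma adjusted p = 0.00547 to 0.844). It was -0.19 without the 3 arrays of widest spread and -0.26 after quantile normalization (limma adjusted p = 0.736 and 0.704). Replicate 14 was also the array with the most adipocyte transcript in its group, as the next genes show.

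The adipocyte-restricted genes were high on single arrays of either treatment and passed the test between IL-1b and vehicle muscle at no time. Adipoq, which encodes adiponectin, was at -0.79, 0.14, 0.0047, -0.52 and 0.11 in IL-1b muscle at 2 h, against -0.17, 0.14, -0.47, 1.60 and -0.38 in vehicle muscle. Vehicle replicate 9 stood alone. At 4 h Adipoq was at -0.0047, -0.25, 0.075, 0.63 and -0.86 in IL-1b muscle and at 0.53, 0.41, -0.20, 1.10 and 0.81 in vehicle muscle. At 8 h it was at 1.90, -1.15 and -0.59 in IL-1b muscle, where replicate 14 is the 1.90, and at -0.67, 0.090, -0.012, 0.45 and -0.67 in vehicle muscle. The IL-1b and vehicle arrays overlapped at each time.

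Cidec, whose protein fuses lipid droplets into the large droplet of white fat, had the same pair of arrays highest. At 2 h it was at -0.49, -0.057, -0.16, -0.47 and -0.16 in IL-1b muscle and at 0.094, 0.21, -0.068, 1.41 and -0.59 in vehicle muscle. At 4 h it was at 0.42, -0.092, 0.45, 1.05 and -0.41 in IL-1b muscle, against 0.41, 0.39, -0.20, 0.78 and 0.74 in vehicle muscle. At 8 h it was at 2.39, 0.057 and -0.13 in IL-1b muscle and at -0.50, -0.29, 0.13, 0.41 and -0.23 in vehicle muscle. The 2.39 is replicate 14 and the 1.41 is vehicle 2 h replicate 9, the 2 highest of the 28 arrays for Cidec.

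Plin1, the perilipin of the adipocyte's large droplet, was at 0.94 on IL-1b 8 h replicate 14 and 1.17 on vehicle 2 h replicate 9, against -0.39 to 0.55 on the other 26 arrays. Retn, which encodes the adipokine resistin, was at 1.76 and 1.89 on those arrays and between -0.85 and 0.84 elsewhere. Both genes thus ranked the same pair of arrays highest. Lep, which encodes leptin, was at 0.90 and 0.81 on them, but IL-1b 2 h replicate 4 reached 0.82 and IL-1b 4 h replicate 18 reached 0.80, so Lep set the pair apart less.

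**Figure D2:**
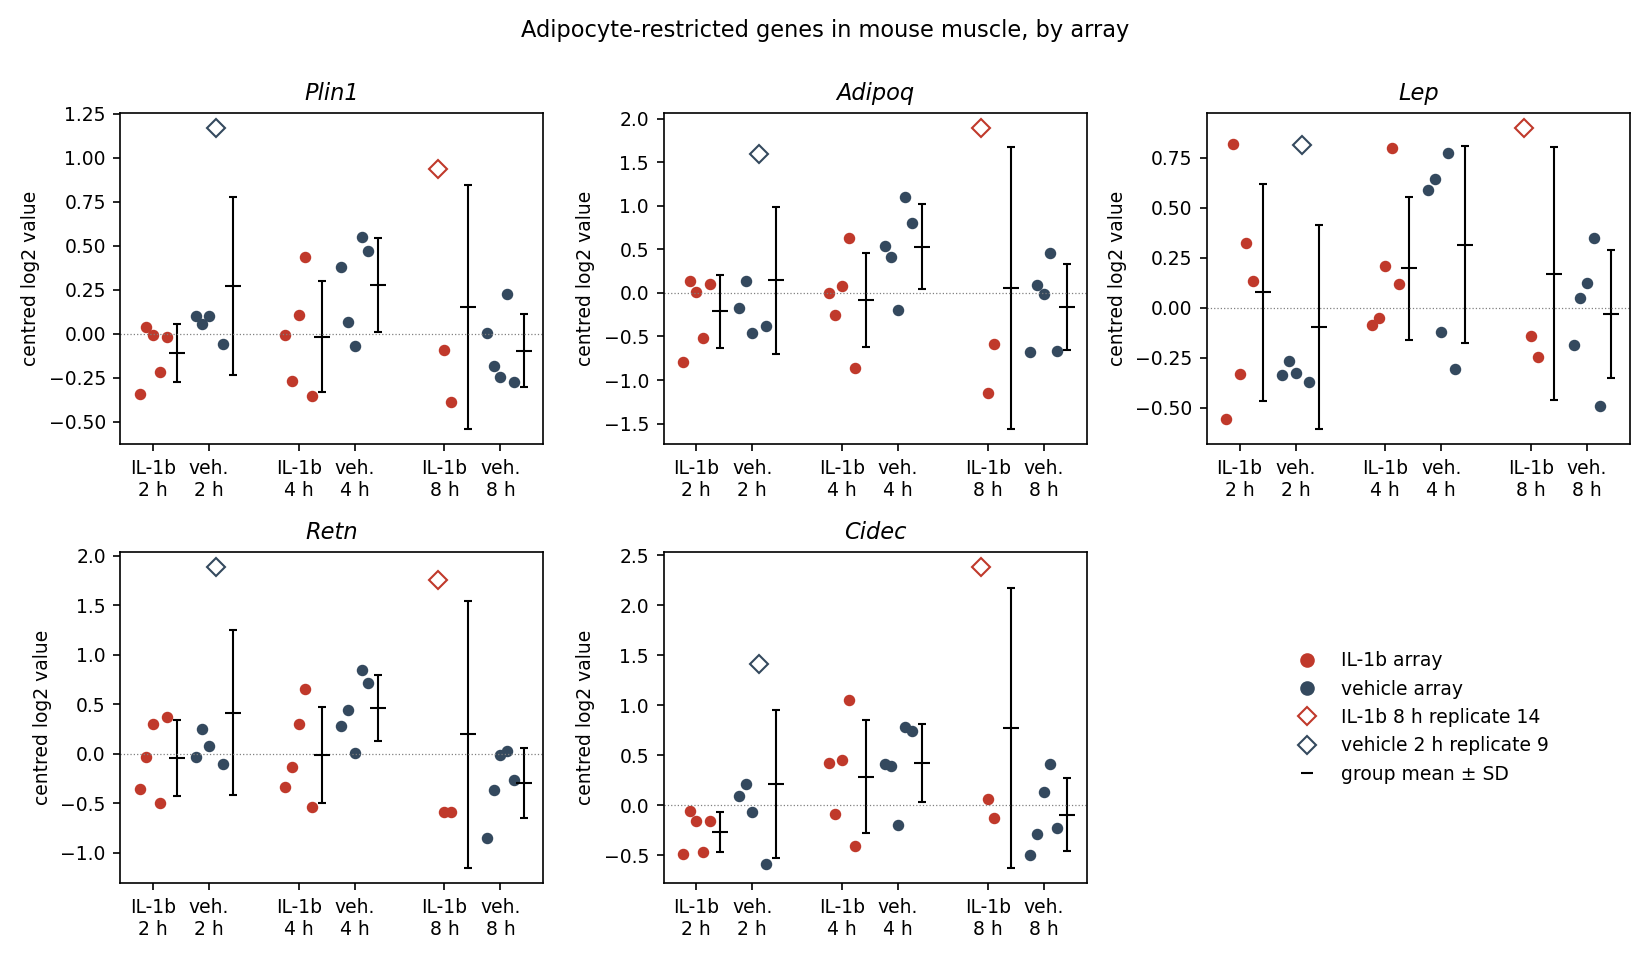
The 5 adipocyte-restricted members by array. The vertical axis is the log2 value centred per probe set, points are arrays, bars are the mean ± SD of each group, and IL-1b stands left of vehicle at each time. The open diamonds, IL-1b 8 h replicate 14 and vehicle 2 h replicate 9, are the 2 highest arrays for Plin1, Adipoq, Retn and Cidec, and the remaining arrays of IL-1b and vehicle muscle overlap at every time.

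The mean of the 5 restricted members was 1.57 on IL-1b 8 h replicate 14 and 1.38 on vehicle 2 h replicate 9. The other IL-1b arrays at 8 h were at -0.38 and -0.39, and the other vehicle arrays at 2 h lay between -0.30 and 0.078. IL-1b muscle ran from -0.51 to 0.18 at 2 h and from -0.41 to 0.71 at 4 h. Vehicle muscle ran from -0.11 to 0.81 at 4 h and from -0.44 to 0.29 at 8 h. Adipocyte transcripts that are no members showed the same pair of arrays: of 11 further adipocyte markers measured, 8 had these arrays as their 2 highest. Among them Pck1, the glyceroneogenic enzyme of fat, was at 2.28 on the IL-1b array and 1.81 on the vehicle array, and Rbp4, an adipokine and retinol carrier, at 1.37 and 1.58. Of the 11, 0 passed the test between IL-1b and vehicle muscle at any time, and their median difference was -0.20 at 2 h, -0.24 at 4 h and 0.19 at 8 h.

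None of the 5 restricted members rose or fell at 2, 4 or 8 h, and 0 of the 5 had an unadjusted limma p under 0.05 at any of these times. The exact permutation p of Plin1 at 2 h was 0.0476, and 0.214 when adjusted over the 27 tests. At 2 h the differences were -0.38 ± 0.22 for Plin1, -0.36 ± 0.43 for Adipoq, 0.17 ± 0.28 for Lep, -0.46 ± 0.37 for Retn and -0.48 ± 0.37 for Cidec (SE, limma adjusted p = 0.51 to 0.814). At 4 h they were -0.30 ± 0.22, -0.61 ± 0.43, -0.12 ± 0.28, -0.47 ± 0.37 and -0.14 ± 0.37 in the same order (limma adjusted p = 0.811 to 0.967). At 8 h they were 0.25 ± 0.25, 0.22 ± 0.50, 0.20 ± 0.32, 0.49 ± 0.43 and 0.87 ± 0.42 (limma adjusted p = 0.393 to 0.955). At 4 h the SE of these genes was 0.22 to 0.43, against 0.12 for Plin4. The 95% interval for Adipoq at 8 h ran from -0.80 to 1.24, so a wide range of differences in either direction lay within it.

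At 8 h a single array set the sign of most of these differences. Without IL-1b replicate 14 the 8 h differences were -0.14 for Plin1, -0.70 for Adipoq, -0.16 for Lep, -0.29 for Retn and 0.06 for Cidec, 4 of them with the opposite sign. Without vehicle replicate 9 the 2 h differences were -0.16, 0.0083, 0.40, -0.09 and -0.18 in that order, 1 of them, that of Adipoq, with the opposite sign. None passed the test in either fit. Plin4 was -0.29 on vehicle replicate 9, rank 25 of 28 arrays. On IL-1b replicate 14 Plin4 was 0.75, rank 3 of 28 but the lowest of the IL-1b arrays at 8 h. The 8 h difference of Plin4 was 0.95 ± 0.16 without IL-1b replicate 14 (SE, limma adjusted p = 0.000572).

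Fabp4 and Pparg were lower in IL-1b muscle at 4 h without passing the test. Fabp4 is the fatty acid binding protein of adipocytes, also found in capillary endothelium and macrophages. It was at -0.17, -0.067, -0.0050, -0.25 and -0.23 in IL-1b muscle at 4 h and at 0.0050, 0.35, -0.087, 0.56 and 0.68 in vehicle muscle. The groups overlapped at 1 vehicle array, and the difference was -0.45 ± 0.18 (SE, limma adjusted p = 0.349, exact permutation p = 0.0317, and 0.171 adjusted over the 27 tests). At 2 h Fabp4 ran from -0.25 to 0.026 in IL-1b muscle and from -0.22 to 0.76 in vehicle muscle, a difference of -0.32 ± 0.18. At 8 h it was at 0.85, -0.24 and -0.20 in IL-1b muscle and from -0.083 to 0.44 in vehicle muscle. That difference was -0.07 ± 0.20 with all arrays and -0.43 ± 0.19 without IL-1b replicate 14 (SE, limma adjusted p = 0.315).

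Pparg encodes PPAR gamma, the master regulator of fat cell differentiation. At 4 h it was at -0.051, -0.27, -0.48, -0.088 and -0.32 in IL-1b muscle and at 0.079, 0.19, -0.0013, 0.47 and 0.37 in vehicle muscle. The groups did not overlap, and the difference was -0.46 ± 0.17 (SE, limma adjusted p = 0.301, exact permutation p = 0.00794, the smallest possible, and 0.0714 adjusted over the 27 tests). With vehicle 2 h replicate 9 and IL-1b 8 h replicate 14 both left out, the spread of Pparg within groups narrowed and the same difference passed (-0.46 ± 0.09, SE, limma adjusted p = 0.00728). Those arrays were the 2 highest for Pparg itself, lie outside the 4 h groups and were left out after seeing the data. That fit is therefore no separate test of the 4 h difference. At 2 h Pparg ran from -0.0056 to 0.19 in IL-1b muscle and from -0.10 to 0.96 in vehicle muscle, and differed by -0.17 ± 0.17. At 8 h it was at 0.63, -0.54 and -0.37 in IL-1b muscle, against -0.36 to 0.049 in vehicle muscle. Its 8 h difference was 0.05 ± 0.20, and -0.31 ± 0.18 without IL-1b replicate 14 (SE, limma adjusted p = 0.527).

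The members, and the gene lists read further on, were chosen with earlier results of these data known. Their counts beside the shares of all probe sets thus describe the choice and do not test it. Over the set, 0 of 9 members passed at 2 h, where 0.0729% of all probe sets did. At 4 h, 1 of 9 rose (Plin4) and 1 fell (Aqp7), where 0.578% of all probe sets rose, 0.269% fell and 0.847% did either. At 8 h 1 of 9 rose (Plin4) and 0 fell, where 1.02% rose, 1.07% fell and 2.09% did either. Groups did not overlap for 0 members at 2 h (2.41% of all probe sets), for Plin4, Aqp7 and Pparg at 4 h (3.5%) and for Plin4 at 8 h (6.67%). The members' median difference was -0.32 at 2 h, -0.45 at 4 h and 0.22 at 8 h. Over all probe sets the median was -0.019, 0.0033 and -0.00044. The selection in the series' design text, a test over the 6 groups at a false discovery rate of 1% with a change of at least 1.75-fold at some time, took 2 of 9 members, Plin4 (limma F-test adjusted p = 2.24e-06) and Aqp7 (limma F-test adjusted p = 8.67e-05), and 0.684% of all probe sets.

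Whether a member's IL-1b difference itself changed with time was tested directly. For the change from 2 h to 4 h, 2 h to 8 h and 4 h to 8 h, 0 of 9 members passed, where 0.0505%, 0.527% and 0.174% of all probe sets did. The Plin4 difference was larger at 8 h than at 2 h by 0.80 ± 0.19 (SE, limma adjusted p = 0.027), and the Aqp7 difference was lower at 4 h than at 2 h by -0.88 ± 0.20 (SE, limma adjusted p = 0.0897). Between 4 h and 8 h the Aqp7 difference changed by 0.69 ± 0.21 (SE, limma adjusted p = 0.213). Mean Aqp7 in vehicle muscle was 0.17, 0.44 and 0.0057 at 2, 4 and 8 h, and in IL-1b muscle -0.00076, -0.61 and -0.35. Vehicle muscle at 8 h was thus lower than at 4 h by -0.43 (limma adjusted p = 0.271). The adjusted p of Aqp7 from 2 h to 4 h was 0.00705 by limma without vehicle 2 h replicate 9 and IL-1b 8 h replicate 14. Those arrays were left out after seeing the data, and IL-1b 8 h replicate 14 is in none of the groups compared. That fit is therefore no separate test of the change. In vehicle muscle alone 0 of 9 members passed between 4 h and 2 h, 8 h and 2 h or 8 h and 4 h, where 0.101%, 0.852% and 0.129% of probe sets did. Plin4 was higher by 0.33 in vehicle muscle at 8 h than at 2 h (limma adjusted p = 0.232), and by 0.48 without the 3 arrays of widest spread (limma adjusted p = 0.00359).

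**Figure D3:**
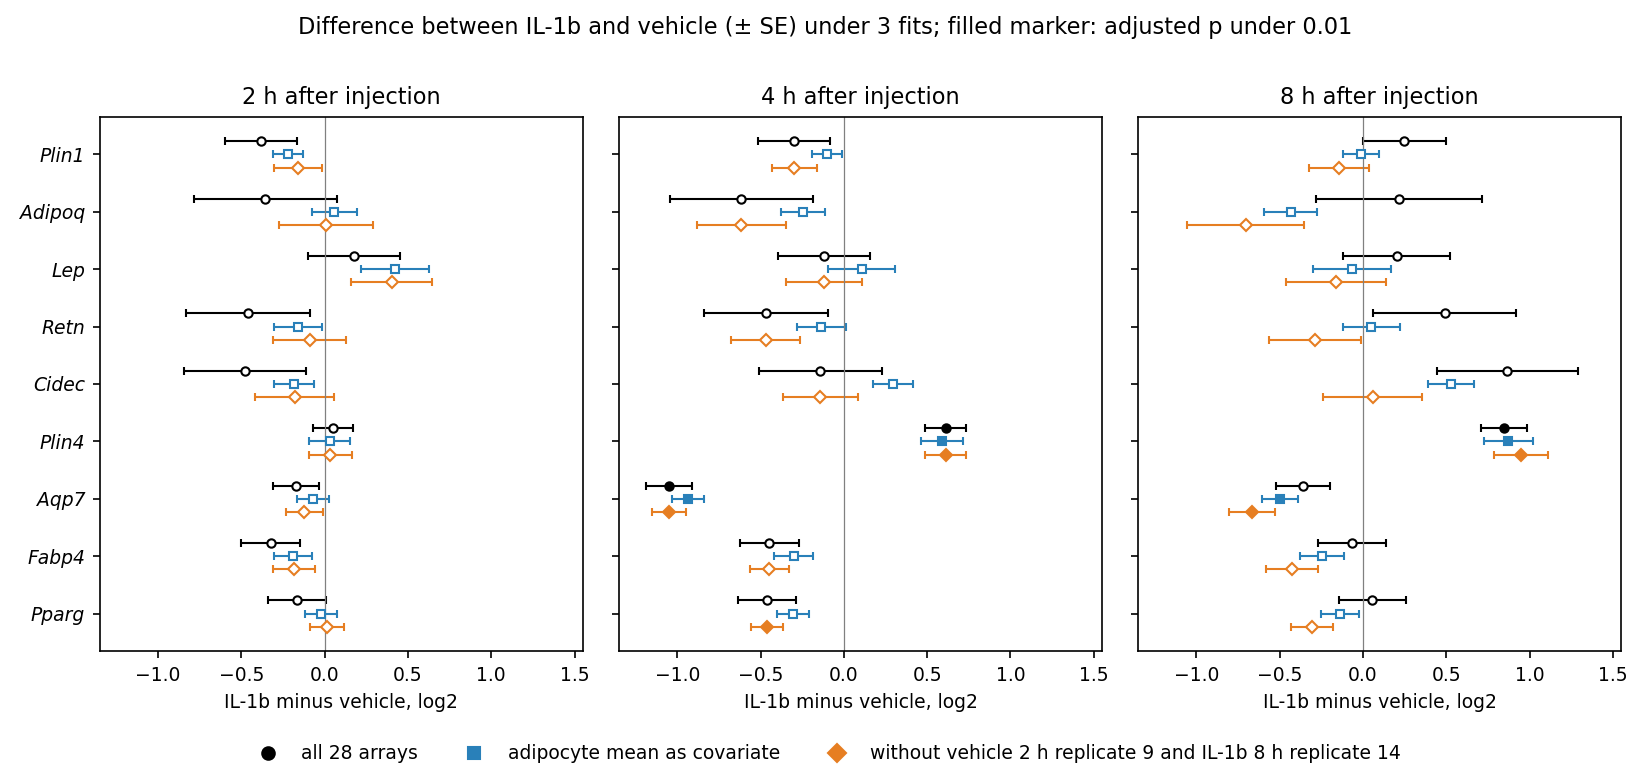
Difference IL-1b minus vehicle for each member at 2, 4 and 8 h, with bars of ± 1 SE, from 3 fits: all arrays, the mean of the adipocyte-restricted members as a covariate, and without vehicle 2 h replicate 9 and IL-1b 8 h replicate 14. The horizontal axis is the log2 difference and filled points have an adjusted p under 0.01. Plin4 at 4 h and 8 h and Aqp7 at 4 h are filled in all 3 fits, Aqp7 at 8 h is filled in the other 2 fits but not in that on all arrays, and Pparg at 4 h only in the fit without the 2 arrays.

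How far each member followed adipocyte transcript was measured within groups, so that differences between groups did not enter. Each value was taken as its deviation from its group mean, and 8 relations to Adipoq were computed over the 28 arrays. Cidec gave Pearson r = 0.946 and Spearman rho = 0.928 (permutation p = 1e-05 each, the smallest that 100000 permutations within groups can give, Benjamini-Hochberg p = 4e-05 and 2e-05), and r = 0.892 without the 2 arrays farthest out, IL-1b 8 h replicate 14 and vehicle 2 h replicate 9. Retn, Plin1 and Lep gave r = 0.936, 0.897 and 0.735, and 0.872, 0.807 and 0.604 without those arrays. Pparg gave r = 0.885 (permutation p = 0.00016, rho = 0.754, 0.764 without them) and Fabp4 r = 0.809 (permutation p = 0.00061, rho = 0.705, 0.636 without them). All of these have a Benjamini-Hochberg p of at most 0.00122 for r and for rho. The group means were not taken again for the values of r without the 2 arrays. Both arrays thus still enter the deviations of the other arrays of their groups.

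Aqp7 followed Adipoq within groups while Plin4 did not. Aqp7 gave r = 0.845 and rho = 0.790 (permutation p = 2e-05 and 1e-05, Benjamini-Hochberg p = 5.33e-05 and 2e-05), and r = 0.784 without the 2 arrays. Plin4 gave r = -0.296 and rho = -0.138 (permutation p = 0.255 and 0.55, unchanged by the adjustment), and r = -0.209 without them. As above, the values of r without the 2 arrays rest on group means that include them. The points share the authors' RMA processing.

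**Figure D4:**
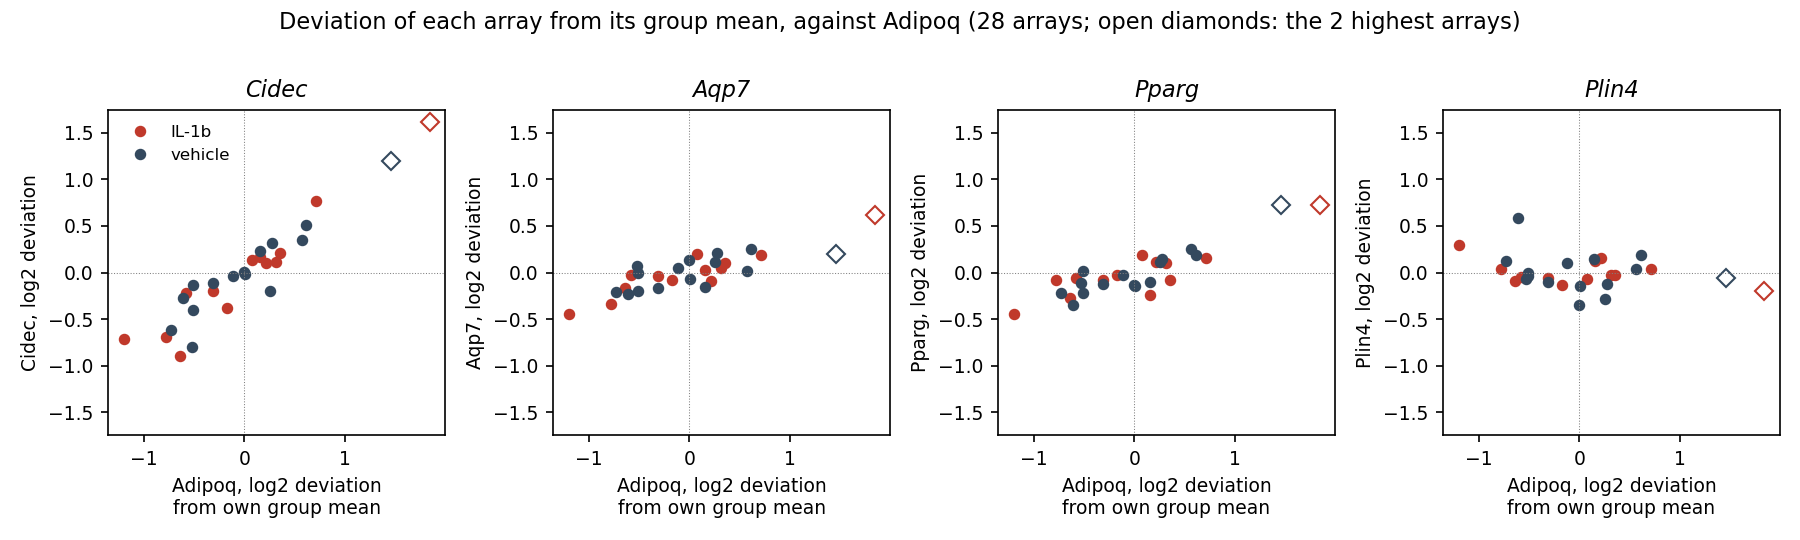
Deviation of Cidec, Aqp7, Pparg and Plin4 from the group mean (vertical axis, log2) against that of Adipoq (horizontal axis, log2), 1 point for each of the 28 arrays, IL-1b and vehicle marked apart. Cidec, Aqp7 and Pparg rise with Adipoq (r = 0.946, 0.845 and 0.885), and Plin4 does not (r = -0.296).

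The differences were refitted with the mean of the restricted members as a covariate, leaving out the gene itself where it is one of them. Plin4 was then higher by 0.59 ± 0.12 at 4 h (SE, limma adjusted p = 0.0091) and 0.87 ± 0.14 at 8 h (SE, limma adjusted p = 0.000345). Aqp7 was lower at 4 h by -0.94 ± 0.09 (SE, limma adjusted p = 7.45e-07) and at 8 h by -0.50 ± 0.11 (SE, limma adjusted p = 0.00657). With the mean of the 11 further adipocyte markers in that place, the Plin4 difference at 4 h was 0.58 ± 0.12 and did not pass (limma adjusted p = 0.0103). The Aqp7 difference at 8 h was then -0.47 and did not pass either (limma adjusted p = 0.0132), while at 4 h it was -0.92 and passed. Pparg at 4 h was -0.31 ± 0.10 with the restricted mean (SE, limma adjusted p = 0.155) and Fabp4 -0.30 ± 0.12 (SE, limma adjusted p = 0.343). No restricted member passed with either adipocyte mean. Closest was Cidec at 8 h, 0.53 ± 0.14 with the restricted mean (SE, limma adjusted p = 0.0237). With the further markers Cidec was 0.50 ± 0.15 (SE, limma adjusted p = 0.0545).

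Markers of capillary cells were set beside Aqp7, which those cells also express. Of 12 pan-endothelial genes 0 passed at any time, with a median difference of -0.13 at 2 h, -0.19 at 4 h and -0.13 at 8 h. Their mean at 4 h ran from -0.21 to -0.021 in IL-1b muscle and from -0.080 to 0.15 in vehicle muscle, so it was lower in IL-1b muscle with overlap. With that mean as a covariate Aqp7 at 4 h was -0.94 (limma adjusted p = 0.00195), and Plin4 at 4 h was 0.68 ± 0.14 and did not pass (SE, limma adjusted p = 0.0151). With the same covariate Fabp4 at 4 h was -0.39 and Pparg at 4 h was -0.42, and neither passed (limma adjusted p = 0.677 and 0.625). The part of endothelial RNA in the Fabp4 and Pparg values was not tested beyond this fit. On IL-1b 8 h replicate 14 the mean of the fibroblast and matrix markers was -0.62, the lowest of the 28 arrays.

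The genes whose deviations were most like those of the restricted mean over the 28 arrays were Prkar2b (r = 0.951), Lgals12 (0.950), Rbp4 (0.945), Nnmt (0.945) and Acp5 (0.942). Lgals12 encodes galectin-12, a lipid droplet protein of adipocytes. Lgals12 was also the gene most like Aqp7 (r = 0.873), followed by Car5b (0.852), Slc16a7 (0.846), Adipoq (0.845) and Ywhab (0.844). Plin4 had a separate set, Hhatl (0.886), Fgfr1 (0.850), Pxn (0.833), Tacc2 (0.830) and Ccar2 (0.829). No gene was shared between the Plin4 set and the others. These genes were picked as the highest of all, so the values are a description without a test.

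The other perilipins are measured beside Plin1 and Plin4. Plin3, the widely expressed perilipin, rose in IL-1b muscle at 8 h, where it ran from 0.19 to 0.39 against -0.52 to -0.28 in vehicle muscle, a difference of 0.62 ± 0.08 (SE, limma adjusted p = 2.56e-05). Its differences at 2 h and 4 h were 0.20 ± 0.07 and 0.17 ± 0.07 and did not pass. Plin2, which coats droplets in most cells, differed by -0.19, -0.29 and -0.33 at 2, 4 and 8 h, and Plin5, the perilipin of oxidative muscle that ties droplets to mitochondria, by 0.10, 0.37 and 0.41. None of those passed (limma adjusted p of 0.103 to 0.823). With array weights Plin5 passed at 4 h (0.45, limma adjusted p = 0.00833) and Plin2 at 8 h (-0.31, limma adjusted p = 0.00228). Plin1 passed at no time, as given above.

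**Figure D5:**
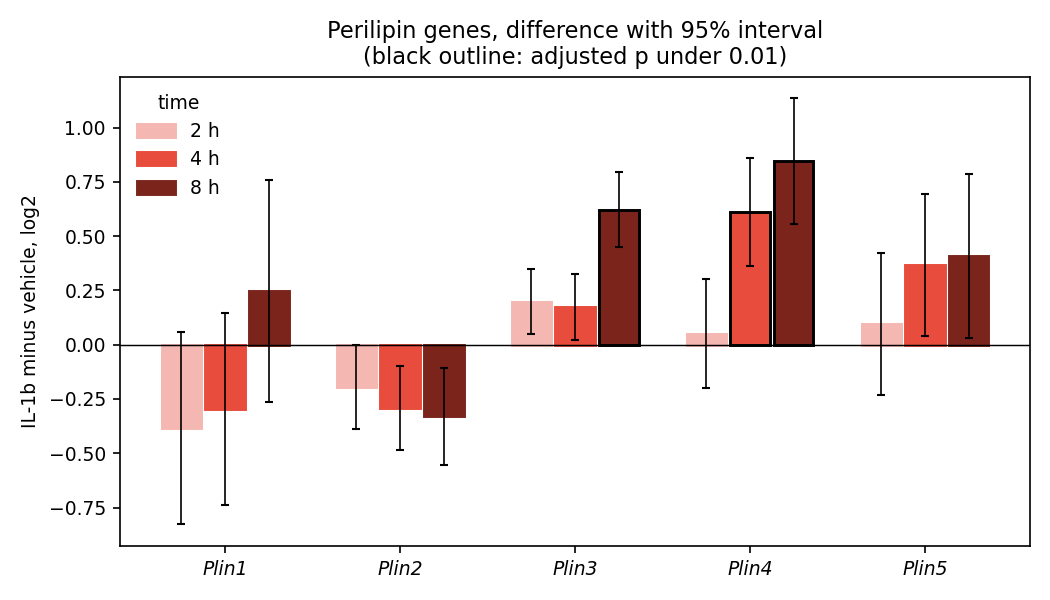
Difference IL-1b minus vehicle of the 5 perilipin genes at 2, 4 and 8 h, with 95% intervals of the fit. The vertical axis is the log2 difference, and a black outline marks an adjusted p under 0.01. Plin4 is outlined at 4 h and 8 h (0.61 and 0.85) and Plin3 at 8 h (0.62), while Plin1, Plin2 and Plin5 are outlined at no time.

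Genes of lipid storage outside the members were read against the 1.02% of all probe sets that rose at 8 h. Of 11 genes of perilipins and lipolysis 2 rose at 8 h, Plin3 and Pnpla2, the gene of adipose triglyceride lipase, which differed by 0.62 ± 0.10 (SE, limma adjusted p = 0.000206). Pnpla2 ran from 0.45 to 0.84 in IL-1b muscle and from -0.33 to 0.27 in vehicle muscle. Of 20 lipid synthesis genes 2 rose at 8 h, the glycerol phosphate acyltransferase gene Gpat3 by 0.57 ± 0.11 (SE, limma adjusted p = 0.00151) and the phosphatidate phosphatase gene Lpin1 by 0.40 ± 0.07 (SE, limma adjusted p = 0.000456). Gpat3 did not pass without IL-1b replicate 14 (0.43 ± 0.11, SE, limma adjusted p = 0.0327). Neither list had a call at 2 h or 4 h. The median differences at 8 h were 0.070 and 0.18, against -0.00044 over all probe sets. The mean of the lipid synthesis list at 8 h was 0.60 on IL-1b replicate 14. On the other IL-1b arrays it was -0.15 and -0.063, and in vehicle muscle it ran from -0.24 to 0.063.

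Among 16 adipogenic factors, 1 fell at 4 h, where 0.269% of all probe sets fell. It was Ebf2, a factor of brown and beige fat precursors, with a difference of -0.35 ± 0.07 (SE, limma adjusted p = 0.00696). Leaving out any of 7 single arrays ended the Ebf2 call, IL-1b replicates 4, 13, 15 and 22 and vehicle replicates 1, 3 and 7 (limma adjusted p of 0.0106 to 0.0329). At 8 h 2 rose and 1 fell, where 1.02% of all probe sets rose and 1.07% fell. Klf15, a glucocorticoid-induced factor, was higher by 1.30 ± 0.16, and Cebpb, which acts early in fat cell differentiation and in inflammation, by 0.90 ± 0.16 (SE, limma adjusted p = 0.000739). Ppargc1b, a coactivator of mitochondrial genes, was lower by -0.80 ± 0.08 (SE, limma adjusted p = 5.52e-07). It ran from -0.41 to -0.21 in IL-1b muscle and from 0.39 to 0.60 in vehicle muscle. The Cebpb difference was 0.66 and did not pass without IL-1b replicate 22 (limma adjusted p = 0.0171).

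Of the 18 genes measured from a list of PPAR targets in muscle, which also holds Pparg and shares Plin2, Plin5, Cd36 and Lpl with other lists, 1 fell at 4 h and 1 rose at 8 h, where 0.269% of all probe sets fell and 1.02% rose. Cpt1a, which admits long-chain fatty acids to mitochondria, differed by -0.46 ± 0.09 at 4 h (SE, limma adjusted p = 0.00303) and did not pass without IL-1b replicate 13 or 22 or vehicle replicate 17 (limma adjusted p of 0.0127 to 0.018). Ucp3, the mitochondrial uncoupling protein of muscle, differed by 0.88 ± 0.19 at 8 h (SE, limma adjusted p = 0.00594) and did not pass without IL-1b replicate 22 or 26 or vehicle replicate 1, 9 or 21 (limma adjusted p of 0.0127 to 0.0486). Pdk4, the kinase that shuts pyruvate oxidation, differed by 0.13, 0.05 and 0.51 at 2, 4 and 8 h (limma adjusted p at 8 h = 0.0206), and the lipase inhibitor Angptl4 by -0.53, -0.18 and 0.63 (limma adjusted p at 8 h = 0.0626). Neither passed, though Pdk4 at 8 h did with array weights (0.50, limma adjusted p = 6.58e-05). Of 14 aquaporin and glycerol genes beside Aqp7 none passed at any time, nor did any of 9 fatty acid binding protein genes beside Fabp4 or 14 genes of capillary lipid transport. That last list holds Lpl, Gpihbp1 and Cd36, whose differences over the 3 times ran from -0.12 to 0.16, from -0.04 to 0.22 and from -0.14 to 0.20.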

How the data were processed

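Per the labels' protocols, biotin-labelled total RNA of muscle was measured on Affymetrix arrays. The log2 values deposited by the authors come from RMA and mm9, as the submitters' processing notes name them, with no version of RMA. The base of the logarithm is not stated, and log2 was assumed because RMA returns it. Each of 17831 probe sets has a median of 0 over 28 arrays, so levels are not known. Of these, 15620 have 1 gene symbol in the platform annotation, 1370 several and 841 none.

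limma 3.58.1 in R 4.3.3 fitted the 6 groups to all arrays and adjusted p-values over all probe sets with Benjamini-Hochberg at 0.01, the rate in the design text. The fit was checked on simulated data. Exact permutation tests took single genes. Groups and replicate numbers came from the titles, and 1 IL-1b 4 h title with no letter between number and time was read as replicate 18.

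The members and the 18 lists (228 entries, 193 measured) were chosen with earlier results of these data known. Named are all members, up to 4 called genes for each list and time, 8 fixed genes, and the 5 genes most like the restricted mean, Plin4 and Aqp7. Alternatives were another spread estimate, fitting only the groups compared, quantile normalization, array weights, leaving out arrays, 3 covariates, a replicate block and a threshold of 0.05. Leaving out vehicle 2 h replicate 9 and IL-1b 8 h replicate 14 together was chosen after seeing the data.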

Additional observations from a re-analysis of the deposited data

Results flagged for a closer look

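A member's value was marked where the highest or lowest array of a group of 4 to 10 stood apart by Dixon's criterion at the 95% level. In 45 groups of members tested, chance marks about 1 in 20. Vehicle 2 h replicate 9 stood apart for Plin1 (1.17, the other 4 arrays -0.060 to 0.10), Lep (0.81, others -0.37 to -0.27), Retn (1.89, others -0.10 to 0.25) and Pparg (0.96, others -0.10 to 0.12). IL-1b 2 h replicate 8 stood apart for Plin4 (-0.014, others -0.23 to -0.19). IL-1b 8 h could not be examined in this way, because it holds 3 arrays.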

How the results depend on the processing

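No paired analysis was possible between IL-1b and vehicle of 1 time because those groups share no replicate number in the titles. Over the 10 pairs of groups and numbers that do recur, same-numbered arrays' deviations correlated between -0.434 and 0.678, with 4 over 0.1. A replicate block as a random term (correlation 0.135) changed no call of a member: Plin4 was 0.61 at 4 h and 0.83 at 8 h, and Aqp7 -1.04 at 4 h.

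Of 732 single-gene values under the alternatives that leave out no single array, 659 kept their direction and side of the threshold, 25 no longer passed, 8 newly passed and 40 changed sign, none of them one that had passed. Plin4 at 4 h did not pass with a trended and robust spread (limma adjusted p = 0.0173). Plin4 at 8 h did not pass with only the groups compared (0.0289) or after quantile normalization (0.56, limma adjusted p = 0.0422). With only the groups compared, Plin3, Pnpla2, Gpat3, Lpin1, Cebpb and Ucp3 at 8 h, Ebf2 and Cpt1a at 4 h and Retnlg at 2 h also did not pass (limma adjusted p of 0.0162 to 0.144). Quantile normalization also ended Pnpla2 (limma adjusted p = 0.0152), Gpat3 (0.0647), Lpin1 (0.0407), Ucp3 (0.257) and Cpt1a (0.0326), leaving out the 3 arrays of widest spread Cebpb (0.0123) and Ucp3 (0.0722), and the pan-endothelial mean Retnlg (0.141), Ebf2 (0.0929) and Cpt1a (-0.29, limma adjusted p = 0.109). Gpat3 also did not pass without the 2 arrays, vehicle 2 h replicate 9 and IL-1b 8 h replicate 14 (0.0106). Newly passing were Aqp7 at 8 h with array weights, with the restricted mean and without those 2 arrays, Pparg at 4 h without them, Plin5 at 4 h and Plin2 and Pdk4 at 8 h with array weights, and Pdk4 at 8 h at a threshold of 0.05. Members called at 4 h, 2 as reported, were 1 with a trended and robust spread and with the further adipocyte or the pan-endothelial mean as a covariate, and 3 without the 2 arrays. At 8 h, 1 as reported, they were 0 with only the groups compared or quantile normalization and 2 with array weights, with the restricted mean as a covariate and without the 2 arrays. The change from 2 h to 4 h, 0 as reported, had 1 call with array weights, with either adipocyte covariate and without the 2 arrays. The change from 2 h to 8 h had 1 with array weights and at a threshold of 0.05, and vehicle 8 h minus 2 h had 1 with array weights and without the 3 arrays of widest spread. The selection over 6 groups took 1 member after quantile normalization or without those 3. Leaving out 1 array gave 1 to 2 calls at 4 h, 1 to 2 at 8 h, 0 to 1 for 2 h to 8 h, 0 to 1 for vehicle 8 h minus 2 h, and 1 to 2 selected.

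Signs turned with array weights for Lep (0.057) and Pdk4 (-0.0076) at 4 h and for Adipoq (-0.46), Cidec (-0.12), Lep (-0.21), Lpl (-0.22), Plin1 (-0.28), Pparg (-0.26) and Retn (-0.39) at 8 h. Without the 3 arrays of widest spread they turned for Gpihbp1 at 2 h (0.035) and 8 h (-0.040) and Fabp4 at 8 h (0.050). With the restricted mean as a covariate they turned for Adipoq at 2 h (0.059), Cidec (0.30) and Lep (0.11) at 4 h, and Adipoq (-0.44), Lep (-0.067), Plin1 (-0.011) and Pparg (-0.14) at 8 h. With the further adipocyte mean they turned for Adipoq (0.13) and Pparg (0.026) at 2 h, Cidec (0.28) and Lep (0.13) at 4 h, and Adipoq (-0.21), Lep (-0.010) and Pparg (-0.11) at 8 h. With the pan-endothelial mean they turned for Gpihbp1 (0.036) and Lpl (0.060) at 2 h and Angptl4 (0.027), Cidec (0.10) and Lpl (0.0059) at 4 h. Without vehicle 2 h replicate 9 and IL-1b 8 h replicate 14 they turned for Adipoq (0.0083) and Pparg (0.015) at 2 h and for Adipoq (-0.70), Cd36 (-0.089), Lep (-0.16), Lpl (-0.011), Plin1 (-0.14), Pparg (-0.31) and Retn (-0.29) at 8 h. The cause was not tested, beyond the arrays each setting leaves out or weighs down.

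Leaving out 1 array turned signs within these ranges: at 2 h Plin4 -0.037 to 0.20, Gpihbp1 -0.094 to 0.035, Adipoq -0.51 to 0.0083, Pparg -0.25 to 0.015 and Lep -0.010 to 0.40, at 4 h Cidec -0.33 to 0.033, and at 8 h Adipoq -0.70 to 0.82, Cd36 -0.089 to 0.33, Fabp4 -0.43 to 0.12, Lep -0.16 to 0.41, Lpl -0.011 to 0.31, Plin1 -0.14 to 0.52, Pparg -0.31 to 0.28 and Retn -0.29 to 0.88. The IL-1b group at 8 h held 3 arrays. Centred values give no signal over background.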

Other observations

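Neutrophil markers, checked as other cells that muscle can hold, gave 1 call among 10 genes at 2 h, where 0.0729% of all probe sets passed. It was Retnlg, a relative of resistin that neutrophils carry, which rose by 1.28 ± 0.19 (SE, limma adjusted p = 0.00151). Without IL-1b replicate 10 the limma adjusted p was 0.0113. It ran from 0.078 to 1.91 in IL-1b muscle and from -0.27 to 0.015 in vehicle muscle, while Retn itself differed by -0.46 ± 0.37. Brown fat markers gave 0 calls among 8 genes at any of the 3 times. Cidea, a droplet protein of brown fat, was at 0.81 on IL-1b 8 h replicate 14 and 0.37 on vehicle 2 h replicate 9, rank 1 and 3 of 28 arrays, and Ucp1, which defines brown fat, was at -0.0079 and 0.24, rank 16 and 4.

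Macrophage, fibroblast, smooth muscle, Schwann cell, erythroid and adipokine receptor lists gave 0 calls at 2, 4 and 8 h. The median difference was -0.34, 0.023 and 0.26 for 9 macrophage genes. It was -0.31, -0.14 and -0.47 for 10 fibroblast genes and -0.21, -0.095 and -0.26 for 8 smooth muscle genes. It was -0.26, 0.077 and 0.12 for the 2 of 7 erythroid genes measured, and from -0.045 to 0.060 for the other 2 lists. IL-1b and vehicle arrays did not overlap in the mean of macrophage markers at 2 h or of smooth muscle markers at 8 h. Whether cell content differed was not tested.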
